A study of Rattus norvegicus with 12 samples.

Results

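Genes of cholesterol and fatty acid synthesis were examined in rat dorsal root ganglia after nerve injury. Of 37 listed genes, 34 were measured by a probe set with a single gene symbol, among 10411 genes in all, and each was represented by its brightest probe set, judged on the mean over the 12 arrays. They comprised 17 enzymes of the sterol branch, 12 enzymes of the fatty acid branch and 5 genes that control both. Hmgcs1, Ggps1 and Stard4 were not analysed here.

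Dorsal root ganglia are the clusters of sensory nerve cell bodies beside the spinal cord, and total RNA from ganglia of segments L4/L5 was hybridised to Affymetrix arrays, which report 1 signal per probe set. All rats were adult male Sprague Dawley animals, from sub-lines named Low Pain (LP) and High Pain (HP). In spinal nerve ligation (SNL), a model of neuropathic pain, the spinal nerves of L4 and L5 are tied. The sham operation left the nerve undamaged. The 4 groups, with 3 arrays each, were LP rats 3 days after SNL, LP rats after sham surgery, HP rats 3 days after SNL and HP rats after sham surgery. No time is given for the sham groups. The labels do not say whether replicates are separate animals or pools, so the p-values reflect no more than the variation among these arrays, part or all of which may be technical.

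Cells make cholesterol from acetyl-CoA through mevalonate, isoprenoid units, squalene and lanosterol, and they make saturated and monounsaturated fatty acids from the same precursor through malonyl-CoA. Transcription of both routes is driven by the SREBP proteins, which are carried to the Golgi by SCAP and held back in the endoplasmic reticulum by INSIG proteins when sterols are plentiful. In peripheral nerve, Schwann cells use these routes to build myelin, and neurons need both lipids for their membranes.

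All arrays as deposited shared a mean of 500.1 without the lowest and highest 2% of values, so their likeness in scale is not a result. Array medians were 278.4 to 313.2. The members were mostly bright, with 30 of 34 above the 50th percentile of mean signal. The neuron markers ranged widely. The neurofilament gene Nefh had signals of 8372.5 to 9794.9 in LP SNL ganglia and 9549.4 to 11360.2 in LP sham ganglia, while the heat-sensing channel gene Trpv1 had 117.2 to 121.0 in LP SNL ganglia, under the array medians, and 312.3 to 327.0 in LP sham ganglia. Some cell type markers changed with ligation (limma, adjusted p under 0.05). Over all genes 7.66% rose and 6.79% fell in LP, and 7.02% rose and 6.61% fell in HP. Of 9 macrophage markers, 8 rose in each line, and their summed signal was 12180 to 14395 in LP SNL ganglia against 5525 to 6046 in LP sham ganglia, and 13764 to 15129 in HP SNL ganglia against 6272 to 7392 in HP sham ganglia. Of 9 neuron markers, 5 fell in each line: Calca, Scn10a, Scn11a, Trpv1 and Tac1. Nefh, Nefl, Prph and Uchl1 passed in neither line, with averaged log2 differences of -0.10 ± 0.07 for Nefh and -0.13 ± 0.07 for Nefl. The sum of the 9 was 33231 to 37722 in LP SNL ganglia against 42606 to 48336 in LP sham ganglia. In HP it was 38268 to 40757 in SNL ganglia against 44573 to 47486 in sham ganglia. Of 9 Schwann cell and myelin markers, Cnp and Sox10 rose in each line and Mal fell in HP. The list summed to 36561 to 37478 in LP SNL ganglia against 35444 to 40437 in LP sham ganglia, and to 39206 to 42094 in HP SNL ganglia against 34158 to 38587 in HP sham ganglia. Of 8 satellite glia markers, Gfap, Gja1 and Glul rose and Cadm1 fell in each line, with Gfap at log2 differences of 1.54 ± 0.09 in LP and 1.67 ± 0.09 in HP. Their sum, of which Apoe made up a large part, came to 16758 to 18601 in LP SNL ganglia against 16423 to 18803 in LP sham ganglia, and to 19404 to 19760 in HP SNL ganglia against 15564 to 18687 in HP sham ganglia. Of 8 adipocyte markers, 1 (Cfd) rose in LP and 0 passed in HP, counts near the shares of all genes. The list summed to 1122 to 1513 in LP SNL ganglia against 1074 to 1186 in LP sham ganglia. In HP it summed to 1363 to 1591 in SNL ganglia against 1220 to 1285 in sham ganglia. Of 6 muscle markers, Acta1 and Myh4 fell in HP and 0 passed in LP, and the list summed to 2736 to 3060 in LP SNL ganglia against 2848 to 3270 in LP sham ganglia, and to 2594 to 2838 in HP SNL ganglia against 3448 to 3904 in HP sham ganglia. No marker of any list was at 0. The part that these shifts have in the lipid results was not tested, and in bulk tissue fewer cells of a type and less RNA per cell cannot be told apart.

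The first comparison asked what ligation did to these genes in each line. Of the 34 members, 8 fell and 1 rose in LP ganglia (limma, adjusted p under 0.05), while over all genes 6.79% fell and 7.66% rose. In HP ganglia 6 fell and 1 rose, against 6.61% and 7.02% of all genes. The same 6 members fell in both lines: Idi1, Fdft1, Sqle and Cyp51 of the sterol branch, the sterol sensor partner Insig1, and the acyl-CoA synthetase Acsl3. Acsl4 rose in both lines. RNA quality was read from the 3' to 5' ratios of control probe sets. For beta-actin the ratio was 1.113 to 1.125 in LP SNL and 0.993 to 1.877 in LP sham arrays. In HP it was 1.118 to 1.342 after SNL and 1.483 to 1.847 after sham, so it separated the HP groups. For GAPDH the groups overlapped in both lines, with 1.084 to 1.183 in LP SNL and 1.056 to 1.095 in LP sham arrays. HP SNL arrays had GAPDH ratios of 1.066 to 1.244 and HP sham arrays 1.095 to 1.17. As the beta-actin ratio separated the HP groups, a covariate for it cannot be fully told apart from ligation there. With the beta-actin ratio as a covariate, 4 of the 6 members that fell lost their HP calls: Idi1 (adjusted p = 0.104), Fdft1 (0.051), Insig1 (0.12) and Acsl3 (0.0503). With the replicate number as a block, Cyp51 passed in neither LP (0.0517) nor HP (0.052). Calls in both lines and in the same direction took in 4.51% of all genes for falls and 5.07% for rises. In the average of the SNL effects of both lines, which rests on all 12 arrays, 15 members fell and 1 rose, against 11.8% and 13.0% of all genes.

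**Figure D1:**
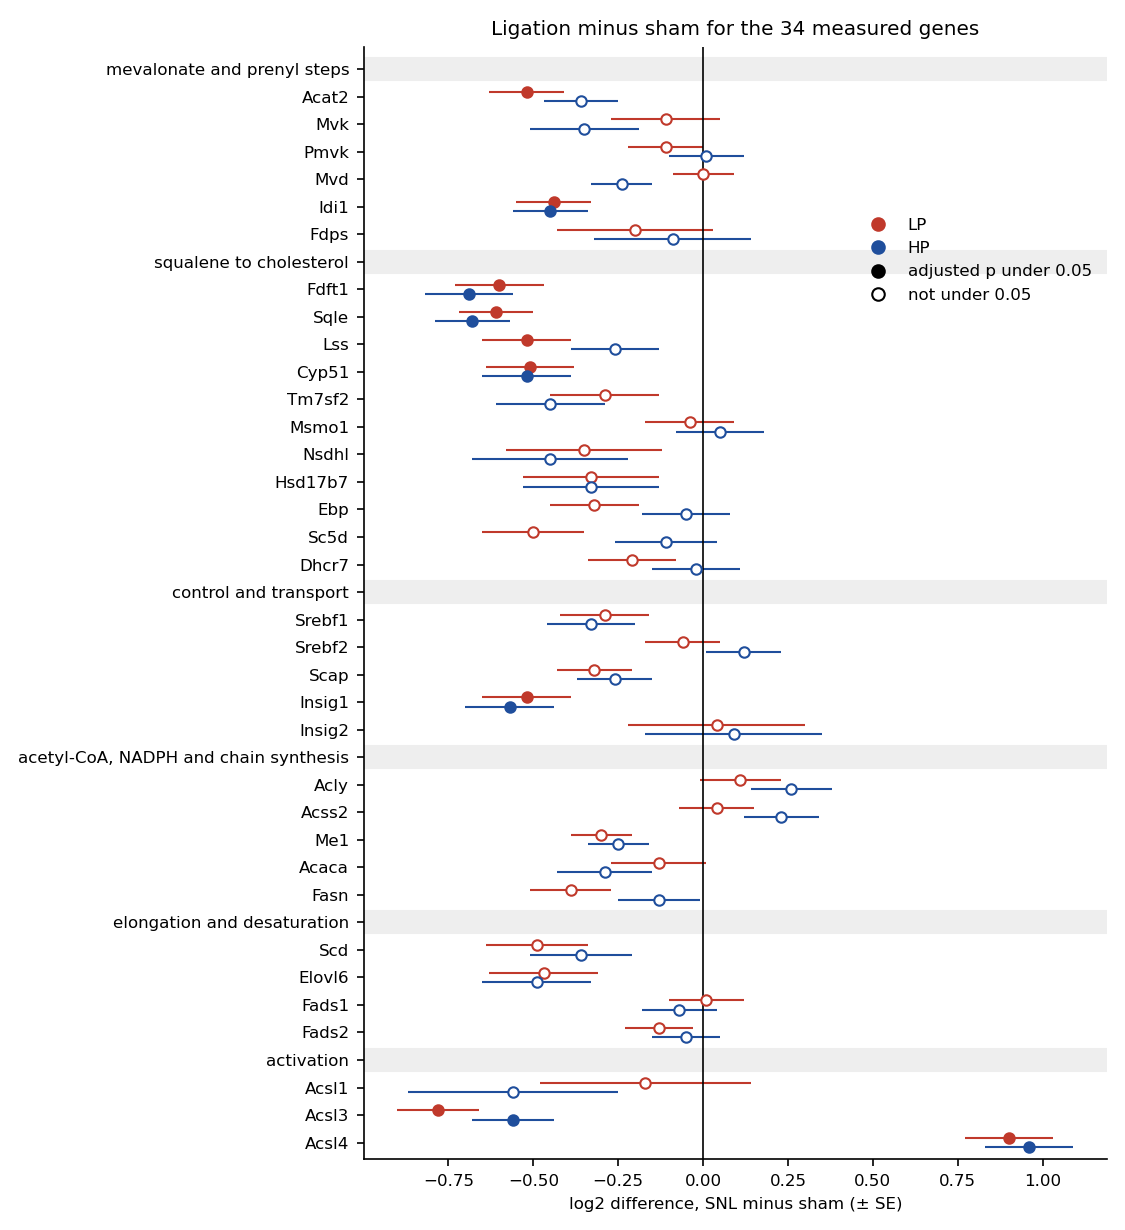
Log2 difference, SNL minus sham, with SE (x axis), for each of the 34 measured genes in the LP line (red, upper point of each pair) and the HP line (blue). Filled points passed limma's adjusted p of 0.05; most points lie left of 0, and Acsl4 lies farthest to the right at 0.90 in LP and 0.96 in HP.

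Sterol synthesis starts by joining acetyl-CoA units, a step of Acat2, the cytosolic acetoacetyl-CoA thiolase. Its signals were 901.6, 934.1 and 917.0 in LP SNL ganglia, against 1422.9, 1399.7 and 1140.4 in LP sham ganglia. In the HP line they were 960.4, 940.4 and 1060.3 in HP SNL ganglia, against 1371.1, 1164.5 and 1276.7 in HP sham ganglia. All SNL arrays lay below all sham arrays in both lines. The log2 difference was -0.52 ± 0.11 in LP (adjusted p = 0.0104) and -0.36 ± 0.11 in HP (adjusted p = 0.0541), so of the single lines it passed in LP alone, and the averaged difference of -0.44 ± 0.08 passed (adjusted p = 0.00209). Fitting only the 6 LP arrays ended the LP call, at an adjusted p of 0.0606.

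Idi1 encodes the isomerase that interconverts the isoprenoid building blocks. Its signals were 1097.8, 927.1 and 1016.4 in LP SNL ganglia, against 1447.1, 1311.1 and 1373.2 in LP sham ganglia. For HP rats the values were 1088.0, 939.5 and 900.7 in HP SNL ganglia, against 1230.3, 1348.4 and 1409.6 in HP sham ganglia. No SNL array reached any sham array of its line, and the lines lay close together. The log2 difference was -0.44 ± 0.11 in LP and -0.45 ± 0.11 in HP (adjusted p = 0.0195 and 0.0207). Single arrays mattered for these calls: in LP the adjusted p was 0.0641 without LP SNL replicate 2, 0.0575 without LP SNL replicate 3 and 0.0633 without LP sham replicate 1. In HP it was 0.0685 without HP SNL replicate 2, 0.0756 without HP SNL replicate 3, 0.0602 without HP sham replicate 2 and 0.078 without HP sham replicate 3. Its second probe set passed in neither line, at -0.40 ± 0.13 in LP (adjusted p = 0.0694 over probe sets) and -0.26 ± 0.13 in HP (0.232). The remaining 4 measured enzymes of this stretch, Mvk, Pmvk, Mvd and Fdps, did not pass in any SNL comparison. Their averaged log2 differences ran from -0.23 for Mvk to -0.05 for Pmvk. The direction of Mvk depends on the probe set, since its others gave 0.18 ± 0.20 (mean signal 319.6) and 0.46 ± 0.18 (mean signal 12.86).

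The first enzyme committed to sterols, squalene synthase, is encoded by Fdft1. Its signals were 1149.5, 1176.1 and 1113.0 in LP SNL ganglia, against 1870.6, 1521.2 and 1824.0 in LP sham ganglia. HP rats gave 1253.0, 931.0 and 1151.4 in HP SNL ganglia, against 1849.9, 1614.4 and 1878.6 in HP sham ganglia. Every SNL array was below every sham array of its line. Ligated ganglia had 1.51-fold lower signal in LP and 1.61-fold lower signal in HP, on log2 differences of -0.60 ± 0.13 and -0.69 ± 0.13 (adjusted p = 0.0121 and 0.00705). The second probe set of Fdft1 gave a smaller difference of -0.33 ± 0.10 in each line and passed in neither (adjusted p = 0.071 in LP and 0.0687 in HP, over probe sets).

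Sqle, squalene epoxidase, is a rate-limiting enzyme late in the route. Its signals were 815.8, 1021.3 and 942.0 in LP SNL ganglia, against 1446.9, 1459.6 and 1317.7 in LP sham ganglia. In the other line they were 961.7, 816.1 and 837.9 in HP SNL ganglia, against 1347.2, 1525.4 and 1325.2 in HP sham ganglia. The groups did not overlap in either line. The log2 differences were -0.61 ± 0.11 in LP and -0.68 ± 0.11 in HP (adjusted p = 0.00586 and 0.00381). Averaged over the lines, Sqle at -0.65 ± 0.08 and Fdft1 at -0.64 ± 0.09 were the lowest of the probe sets used for the sterol branch. This order depends on the probe set, since the second sets gave -0.33 ± 0.07 for Fdft1 and -0.62 ± 0.09 for Sc5d. The calls of Sqle in both lines passed in each of the 21 alternatives run.

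Lss, lanosterol synthase, closes the sterol rings. Its signals were 459.2, 419.0 and 489.1 in LP SNL ganglia, against 677.7, 622.0 and 659.1 in LP sham ganglia. In HP rats they were 521.9, 530.0 and 472.2 in HP SNL ganglia, against 682.9, 500.9 and 654.4 in HP sham ganglia. The LP groups were apart, while in HP the sham array at 500.9 lay inside the SNL values. The log2 difference passed in LP, at -0.52 ± 0.13 (adjusted p = 0.0199), and did not in HP, at -0.26 ± 0.13 (adjusted p = 0.223). The LP call was lost without LP SNL replicate 1 (0.0555), LP SNL replicate 2 (0.0655) or LP sham replicate 1 (0.0618). The averaged difference was -0.39 ± 0.09 (adjusted p = 0.00915), and -0.05 ± 0.09 for its second probe set, whose mean signal was 30.47.

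Cyp51 encodes lanosterol demethylase. Its signals were 1544.7, 1820.4 and 1412.0 in LP SNL ganglia, against 2011.5, 2316.1 and 2472.5 in LP sham ganglia. HP ganglia had 1302.9, 1176.7 and 1515.1 in HP SNL ganglia, against 1891.5, 1916.9 and 1889.6 in HP sham ganglia. The groups did not overlap in either line. The log2 differences were -0.51 ± 0.13 in LP and -0.52 ± 0.13 in HP (adjusted p = 0.0247 and 0.0256). In LP the adjusted p was 0.0773 without LP SNL replicate 1, 0.0935 without LP SNL replicate 3, 0.0733 without LP sham replicate 2 and 0.074 without LP sham replicate 3. In HP it was 0.0684 without HP SNL replicate 1, 0.0901 without HP SNL replicate 2, and 0.0736, 0.0693 and 0.0714 without HP sham replicates 1, 2 and 3. The suffix (_s_at) of its probe set marks probes that can match more than 1 transcript. The other probe set of Cyp51 passed in both lines at log2 differences of -0.46 in LP and -0.43 in HP.

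Tm7sf2, a sterol reductase, passed only in the average over the lines. Its signals were 635.6, 483.7 and 521.5 in LP SNL ganglia, against 843.2, 623.7 and 553.8 in LP sham ganglia. In HP they were 536.4, 492.7 and 476.3 in HP SNL ganglia, against 710.7, 631.7 and 720.6 in HP sham ganglia. LP arrays overlapped and HP arrays did not. The averaged log2 difference was -0.37 ± 0.11 (adjusted p = 0.0371). This call was lost in 9 of 20 alternatives, 8 of them leaving out 1 array: LP SNL replicate 2 (0.0806) or 3 (0.0783), LP sham replicate 1 (0.0522) or 2 (0.053), HP SNL replicate 2 (0.0717) or 3 (0.0781), and HP sham replicate 1 (0.0782) or 3 (0.0792). Adjusting for the beta-actin ratio gave -0.16 (adjusted p = 0.299).

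The other 6 enzymes between lanosterol and cholesterol, Msmo1, Nsdhl, Hsd17b7, Ebp, Sc5d and Dhcr7, did not pass. Sc5d, a sterol desaturase, depended on the probe set. The one used gave an averaged log2 difference of -0.31 ± 0.11 (adjusted p = 0.0639), while its second probe set gave -0.62 ± 0.09 and passed in both lines when each probe set was its own test (adjusted p = 0.00994 in LP and 0.0202 in HP). Msmo1, a methyl sterol oxidase, had an averaged difference of 0.00 ± 0.09. Of the 13 members with more than 1 probe set, 11 had every probe set below 0 in the averaged difference. The same share was not counted over all genes, so it is no measure of agreement.

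**Figure D2:**
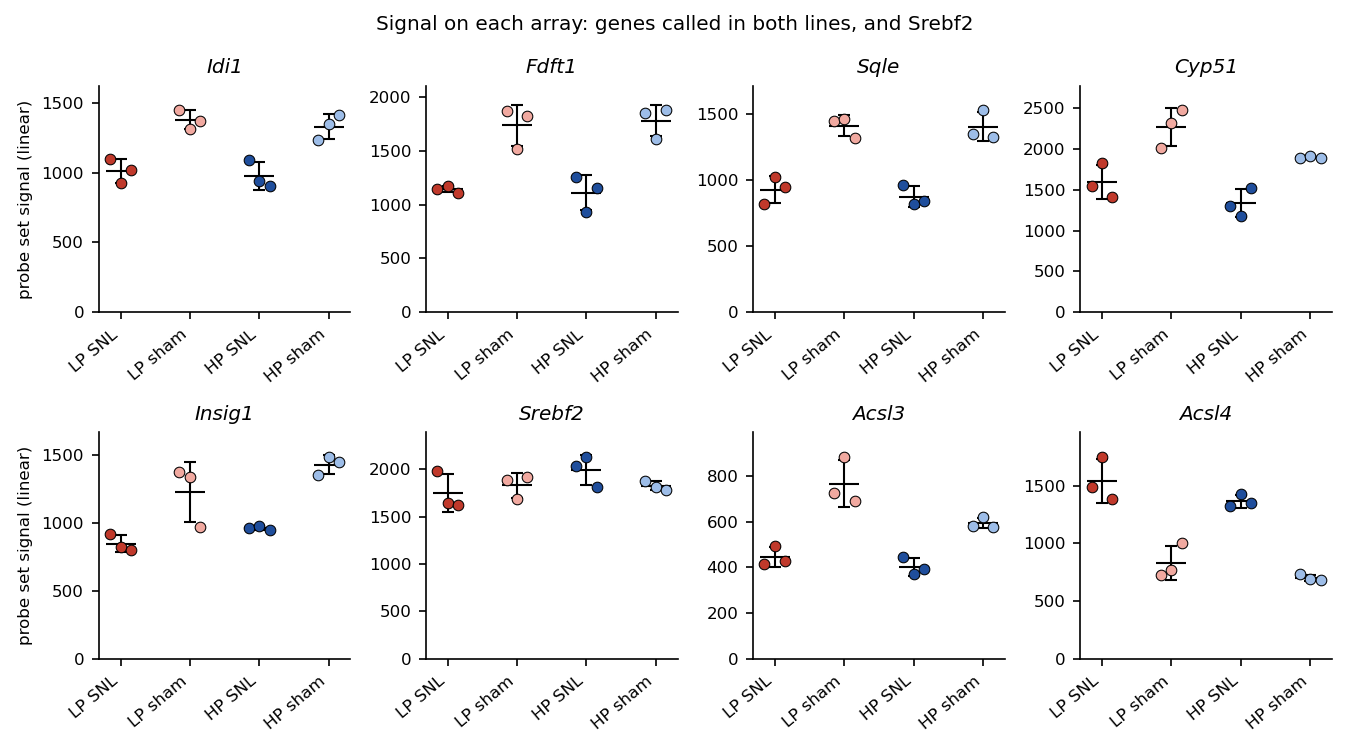
Probe set signal (linear, y axis from 0) on each array for the 7 genes called in both lines and for Srebf2, with bars at the mean and SD of 3 arrays. SNL arrays lie below the sham arrays of their line in 6 panels, above them for Acsl4, and overlap them for Srebf2.

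Among the control genes, Insig1 was the one that passed in both lines. INSIG1 retains the SCAP and SREBP complex, and its own gene is a target of SREBP. Its signals were 915.8, 820.4 and 802.6 in LP SNL ganglia, against 1375.9, 1337.5 and 972.4 in LP sham ganglia. In HP rats they were 964.3, 974.0 and 944.7 in HP SNL ganglia, against 1351.8, 1486.5 and 1448.6 in HP sham ganglia. The groups did not overlap, although LP sham replicate 3 lay well below the other LP sham arrays. The log2 differences were -0.52 ± 0.13 in LP and -0.57 ± 0.13 in HP (adjusted p = 0.0232 and 0.0174). In LP the adjusted p was 0.0653 without LP SNL replicate 2, 0.082 without LP SNL replicate 3, 0.078 without LP sham replicate 1 and 0.0828 without LP sham replicate 2. In HP it was 0.0569 without HP SNL replicate 3, 0.0564 without HP sham replicate 2 and 0.0589 without HP sham replicate 3.

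Scap, the escort of the SREBP proteins, had signals of 835.1, 759.1 and 685.1 in LP SNL ganglia, against 842.7, 985.7 and 1025.9 in LP sham ganglia. In HP its signals were 750.0, 661.7 and 739.2 in HP SNL ganglia, against 871.9, 881.8 and 821.4 in HP sham ganglia. SNL arrays lay below sham arrays in both lines, by a narrow margin in LP. The averaged log2 difference was -0.29 ± 0.08 (adjusted p = 0.0197), and neither line passed alone.

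The transcription factors themselves are encoded by Srebf1 and Srebf2, and their differences were not tested against each other. Srebf1 had signals of 792.6, 878.7 and 962.8 in LP SNL ganglia, against 997.6, 1082.3 and 1124.5 in LP sham ganglia. Its HP values were 744.2, 851.2 and 943.8 in HP SNL ganglia, against 1092.3, 907.4 and 1190.7 in HP sham ganglia. LP groups were apart and HP groups overlapped, with an averaged log2 difference of -0.31 ± 0.09 (adjusted p = 0.0373). That call was lost in 10 of 20 alternatives, 8 of them leaving out 1 array: LP SNL replicate 1 (0.0865) or 2 (0.064), LP sham replicate 2 (0.0731) or 3 (0.0738), HP SNL replicate 1 (0.0814) or 2 (0.0653), and HP sham replicate 1 (0.0801) or 3 (0.0858). It was also lost in the mean of its probe sets (0.0776) and with the beta-actin covariate (0.0931), and its second probe set gave -0.12 ± 0.08 (0.352). Srebf2, the main activator of sterol genes, had signals of 1982.7, 1648.1 and 1626.5 in LP SNL ganglia, against 1891.3, 1681.7 and 1913.0 in LP sham ganglia. In HP it had 2031.2, 2131.8 and 1813.6 in HP SNL ganglia, against 1877.7, 1817.0 and 1784.8 in HP sham ganglia. Its groups overlapped in both lines, and the averaged difference was 0.03 ± 0.08 (adjusted p = 0.833). Insig2, the paralogue of Insig1, was dim, and its averaged difference of 0.06 ± 0.18 did not pass (adjusted p = 0.845).

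In the fatty acid branch, the 5 enzymes that supply and build the chain had averaged log2 differences from -0.28 to 0.19. Acly and Acss2, which supply acetyl-CoA, did not pass, at averaged log2 differences of 0.19 ± 0.08 and 0.13 ± 0.08. Me1, malic enzyme, a source of NADPH, had signals of 1026.0, 1016.8 and 976.9 in LP SNL ganglia, against 1179.0, 1277.0 and 1271.5 in LP sham ganglia. The HP signals were 1073.3, 882.7 and 1068.7 in HP SNL ganglia, against 1229.5, 1183.9 and 1173.4 in HP sham ganglia. No array overlapped between SNL and sham, and the averaged difference was -0.28 ± 0.07 (adjusted p = 0.0124). Its second probe set gave -0.16 ± 0.06 and did not pass (adjusted p = 0.0754 over probe sets). Acaca, the acetyl-CoA carboxylase that makes malonyl-CoA, had overlapping LP arrays and an averaged difference of -0.21 ± 0.10 (adjusted p = 0.167).

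Fasn, fatty acid synthase, had signals of 2287.3, 1836.2 and 1685.4 in LP SNL ganglia, against 2578.9, 2704.8 and 2287.9 in LP sham ganglia. In HP its signals were 2385.3, 2436.9 and 2273.3 in HP SNL ganglia, against 2681.4, 2539.8 and 2534.5 in HP sham ganglia. SNL arrays were below sham arrays in both lines, in LP with 2287.3 after SNL against 2287.9 after sham at the closest pair. The averaged log2 difference was -0.26 ± 0.08 (adjusted p = 0.0473). It was lost in 12 of 20 alternatives, more than any other averaged call of a member. Of these, 10 left out 1 array: LP SNL replicate 2 (0.0921) or 3 (0.102), LP sham replicate 1 (0.0851) or 2 (0.103), HP SNL replicate 1 (0.0782), 2 (0.0708) or 3 (0.0951), and HP sham replicate 1 (0.0995), 2 (0.0764) or 3 (0.0779). Its second probe set gave an averaged difference of -0.38 ± 0.09 (adjusted p = 0.0135 over probe sets).

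Scd, stearoyl-CoA desaturase, introduces the double bond of monounsaturated fatty acids. Its signals were 980.2, 849.1 and 891.3 in LP SNL ganglia, against 1551.4, 1308.8 and 1017.4 in LP sham ganglia. HP rats had 872.3, 801.1 and 694.0 in HP SNL ganglia, against 1069.8, 942.8 and 1016.3 in HP sham ganglia. The groups did not overlap, with LP sham replicate 3 close to the LP SNL arrays. The averaged log2 difference was -0.43 ± 0.11 (adjusted p = 0.0159), and -0.23 with the beta-actin ratio as a covariate (adjusted p = 0.129).

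Elovl6, the elongase that lengthens saturated and monounsaturated chains, had signals of 988.9, 728.8 and 750.5 in LP SNL ganglia, against 956.9, 1329.6 and 1124.7 in LP sham ganglia. In HP the values were 746.2, 584.8 and 717.0 in HP SNL ganglia, against 874.9, 1023.4 and 965.8 in HP sham ganglia. LP SNL replicate 1 overlapped the LP sham arrays, and HP groups were apart. The averaged log2 difference was -0.48 ± 0.11 (adjusted p = 0.012). Fads1 and Fads2, the desaturases of polyunsaturated fatty acids, did not pass, at -0.03 ± 0.08 and -0.09 ± 0.07.

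The acyl-CoA synthetases, which activate fatty acids for use, moved in opposite directions. Acsl3, an enzyme linked to lipid droplets, had signals of 412.7, 495.2 and 426.6 in LP SNL ganglia, against 725.0, 884.8 and 692.2 in LP sham ganglia. In HP rats they were 447.3, 370.3 and 393.7 in HP SNL ganglia, against 582.9, 619.3 and 579.0 in HP sham ganglia. All SNL arrays lay below all sham arrays of their line. Acsl3 fell by a log2 difference of -0.78 ± 0.12 in LP and -0.56 ± 0.12 in HP (adjusted p = 0.00226 and 0.0142). The HP call was lost without HP SNL replicate 2 (0.0542).

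Acsl4 prefers arachidonic acid and related polyunsaturated chains. Its signals were 1490.5, 1752.1 and 1383.2 in LP SNL ganglia, against 729.9, 766.5 and 1001.5 in LP sham ganglia. HP ganglia gave 1322.1, 1430.0 and 1350.2 in HP SNL ganglia, against 733.5, 689.6 and 686.6 in HP sham ganglia. Every SNL array exceeded every sham array, so that ligated ganglia had 1.86-fold signal in LP and 1.94-fold signal in HP. The log2 differences were 0.90 ± 0.13 and 0.96 ± 0.13 (adjusted p = 0.00173 and 0.00143). The macrophage markers rose on the same SNL arrays, and their part in this rise was not tested. Acsl1, the third member, did not pass (-0.36 ± 0.22), while its other probe set gave the same averaged difference of -0.36 with a smaller SE of 0.09 and passed (adjusted p = 0.0143 over probe sets).

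Groups were also compared by whether their arrays overlapped. In LP 16 of 34 members had all SNL arrays below all sham arrays, against 14.7% of all genes, and in HP 17 did, against 17.1%. In both lines 11 members did, against 9.44% of all genes. In the other direction, Acsl4 was the 1 member with all SNL arrays above all sham arrays in LP, against 16.5% of all genes. In HP 3 members were, Acly, Acss2 and Acsl4, against 17.2%. Acsl4 was the 1 member in both lines, against 9.85%.

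The branches were then set side by side. The median sterol member had a log2 difference of -0.33 in LP, -0.33 in HP and -0.33 on average, where the median of all genes was 0.02, 0.00 and 0.01. On average 16 of the 17 sterol members lay below 0 in the probe sets used, against 48.4% of all genes. The median fatty acid member had -0.15 in LP, -0.19 in HP and -0.23 on average, with 9 of 12 below 0. Within lines 6 of 17 sterol members fell in LP and 4 in HP, where 6.79% and 6.61% of all genes fell. Of the 12 fatty acid members 1 (Acsl3) fell and 1 (Acsl4) rose in each line, shares near those of all genes. Both are synthetases that activate fatty acids. Of the 5 members of acetyl-CoA, NADPH and chain synthesis and the 4 of elongation and desaturation, 0 passed within a line. On average 7 of 17 sterol members and 5 of 12 fatty acid members fell, near-equal shares, against 11.8% of all genes. The difference between branches was not tested.

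Averaged over its 17 genes, the sterol branch stood at -0.112, -0.175 and -0.223 in LP SNL arrays and 0.115, 0.175 and 0.198 in LP sham arrays, in log2 units relative to each gene's mean over 12 arrays. It stood at -0.091, -0.21 and -0.13 in HP SNL arrays and 0.133, 0.179 and 0.142 in HP sham arrays. SNL and sham arrays were apart in both lines. The fatty acid branch stood at -0.01, 0.008 and -0.125 in LP SNL arrays and 0.016, 0.192 and 0.117 in LP sham arrays. In HP it stood at -0.004, -0.165 and -0.093 after SNL and 0.025, -0.005 and 0.044 after sham. One HP SNL array, replicate 1, reached into the HP sham range of these means. The medians over the 12 genes did not overlap in either line. They were 0.022, -0.149 and -0.069 in HP SNL arrays against 0.057, 0.062 and 0.07 in HP sham arrays. In LP they were 0.005, -0.088 and -0.131 after SNL against 0.082, 0.205 and 0.125 after sham.

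**Figure D3:**
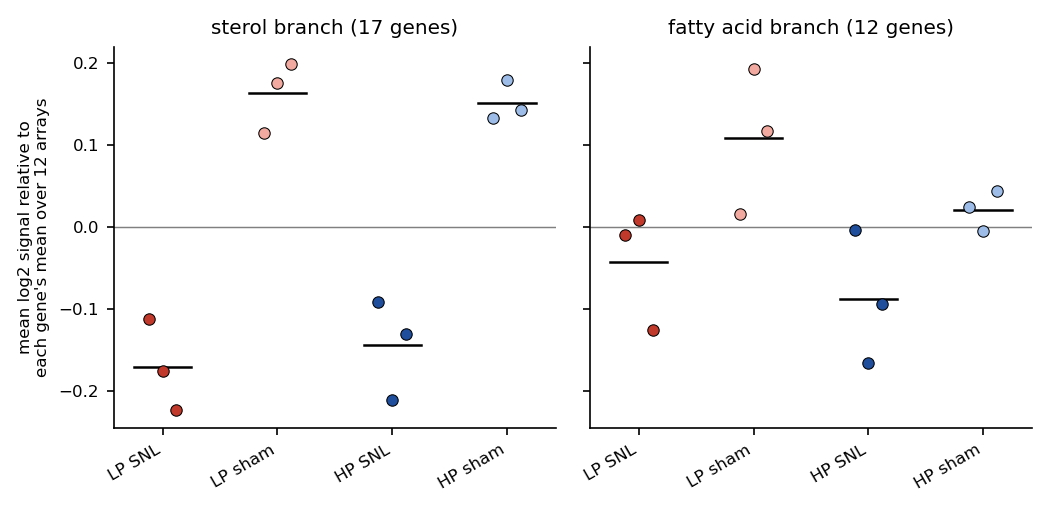
Mean log2 signal relative to each gene's own mean over 12 arrays (y axis) for the sterol branch (17 genes, left) and the fatty acid branch (12 genes, right), 1 point per array with a bar at the group mean. The sterol branch is below 0 on all 6 SNL arrays and above 0 on all 6 sham arrays. The means of the fatty acid branch overlap between HP SNL and HP sham, while its medians (not drawn) do not.

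The second comparison asked whether the lines differed. No member passed in LP against HP after SNL, where 0.173% of all genes did, or after sham, where 0.00961% did. Of the 9 neuron markers, 1 passed as lower in LP after SNL. All 9 lay below 0 there, against 45.3% of all genes, with a median log2 difference of -0.20. After sham 0 of them passed. The part of this shift in the line comparisons of the members was not tested. An unadjusted p under 0.05 was found for 2 members after SNL (Fasn and Fads2) and 4 after sham (Mvk, Mvd, Fads2 and Acsl3). Over all genes the shares were 10.7% and 9.8%, so neither count stood clearly above them. The smallest of these p-values was that of Mvd, mevalonate diphosphate decarboxylase. Its signals were 341.4, 346.7 and 331.4 in LP sham ganglia against 445.7, 432.5 and 506.2 in HP sham ganglia. The groups did not overlap, which was not counted over all genes for the lines. The log2 difference was -0.44 ± 0.09 with an adjusted p of 0.209.

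The SNL effect itself was also compared between lines. No member passed for the difference of the effects, LP minus HP, and 0.0% of all genes did. None had an unadjusted p under 0.05, against 4.7% of all genes. Differences among the members ran from -0.39 to 0.38, with SEs of 0.13 to 0.44. Larger differences outside the members did not pass either, such as -0.81 ± 0.29 for the adipocyte marker Lipe (limma, adjusted p = 0.988). The lack of calls therefore does not show equal effects in the lines. Lss, which passed in LP alone, had a difference of -0.26 ± 0.18 (adjusted p = 0.988), and Acat2 had -0.16 ± 0.15 (adjusted p = 0.988).

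Sequences upstream are shown for 5 of the 7 genes called in both lines, on which the main counts rest: Idi1, Cyp51, Insig1 and Acsl3, which fell, and Acsl4, which rose. Fdft1 and Sqle are not shown. RefSeq promoters of the GRCr8 assembly were matched by symbol for 28 of the 34 members, among them Idi1 (chr17:66547525-66547774, minus strand), Cyp51 (chr4:30991443-30991692, plus strand), Insig1 (chr4:8057770-8058019, minus strand), Acsl3 (chr9:87563351-87563600, plus strand) and Acsl4 (chrX:110803262-110803511, minus strand). Each sequence is the 250 bases before the annotated start, 5′ to 3′ on the gene's strand, with CCAAT boxes on either strand in capitals.
Idi1: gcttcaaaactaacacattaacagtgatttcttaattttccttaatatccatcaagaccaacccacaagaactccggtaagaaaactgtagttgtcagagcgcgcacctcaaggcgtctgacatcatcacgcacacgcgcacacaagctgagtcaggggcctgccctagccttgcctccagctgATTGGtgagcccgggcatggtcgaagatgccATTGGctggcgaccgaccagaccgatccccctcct
Cyp51: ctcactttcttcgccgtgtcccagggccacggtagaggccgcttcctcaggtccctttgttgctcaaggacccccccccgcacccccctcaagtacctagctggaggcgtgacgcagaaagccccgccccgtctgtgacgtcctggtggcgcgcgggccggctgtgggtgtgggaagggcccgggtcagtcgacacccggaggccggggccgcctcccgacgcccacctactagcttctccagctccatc
Insig1: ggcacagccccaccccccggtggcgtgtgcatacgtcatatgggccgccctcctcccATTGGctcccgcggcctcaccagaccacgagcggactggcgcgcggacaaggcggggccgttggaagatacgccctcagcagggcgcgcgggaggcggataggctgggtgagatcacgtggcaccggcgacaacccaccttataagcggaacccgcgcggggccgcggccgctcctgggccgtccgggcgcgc
Acsl3: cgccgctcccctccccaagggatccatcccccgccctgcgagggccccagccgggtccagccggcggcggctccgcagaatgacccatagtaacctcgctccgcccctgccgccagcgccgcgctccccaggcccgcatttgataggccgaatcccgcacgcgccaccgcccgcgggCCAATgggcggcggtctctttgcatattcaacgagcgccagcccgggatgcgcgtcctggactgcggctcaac
Acsl4: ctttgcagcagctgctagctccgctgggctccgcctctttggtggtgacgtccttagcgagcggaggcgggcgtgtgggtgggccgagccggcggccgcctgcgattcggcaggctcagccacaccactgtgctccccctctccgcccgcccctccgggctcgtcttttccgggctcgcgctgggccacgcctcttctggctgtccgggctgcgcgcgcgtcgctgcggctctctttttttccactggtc
CCAAT is the core of sites bound by NF-Y, a known partner of SREBP. Idi1 had 2 boxes, whose first bases lay 66 and 35 bases before the start, Insig1 had 1 at 193 and Acsl3 had 1 at 73. Cyp51 and Acsl4 had none in this window.

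Across the 28 members with a promoter, 20 (71.4%) held CCAAT on either strand, against 35.4% of 8631 array genes and 34.3% of all 27457 promoters of this length. The GC box GGGCGG, a core of Sp1 sites, was in 23 (82.1%), against 56.2% of array genes and 32.4% of all promoters. The sterol regulatory element TCACNCCAC was in 0 members and in 1.0% of array genes and of all promoters. These are matches of letters on both strands, which can overlap each other, and a match is neither a site in use nor a cause. That no member held the TCACNCCAC letters says only that they are not in this window.

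Genes around the synthesis routes gave a mixed picture. Among 20 measured genes of sterol uptake, efflux, storage and their control, 7 rose and 4 fell on average, against 13.0% and 11.8% of all genes, with a median log2 difference of 0.21. The cholesterol exporter Abcg1 fell: its signal was 659.3 to 732.1 in LP SNL and 1167.1 to 1639.8 in LP sham ganglia, and 770.7 to 877.7 in HP SNL and 1206.1 to 1376.9 in HP sham ganglia. Its averaged log2 difference was -0.80 ± 0.09 (adjusted p = 0.00016). Nceh1, a cholesteryl ester hydrolase, fell too (-0.79 ± 0.10). In the other direction moved Tspo, the mitochondrial translocator protein and a marker of macrophages and reactive glia (0.97 ± 0.10), Lrp1, a receptor for lipoproteins (0.40 ± 0.06), and Soat1, which stores cholesterol as esters (0.59 ± 0.08). Lipa, lysosomal acid lipase, had -0.53 ± 0.08. All of these passed in the average, with adjusted p from 9.22e-05 for Tspo to 0.00101 for Lrp1. In the sterol synthesis list, Lbr and Acat1 were measured and neither passed.

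Of 19 other genes of fatty acid synthesis, elongation and desaturation, 2 rose and 5 fell on average, against 13.0% and 11.8% of all genes, so the rises were near the share of all genes. The median log2 difference was -0.02. Acsl6, a synthetase of neurons, had the most negative difference of the list, with signals of 165.4 to 197.8 in LP SNL against 541.6 to 580.8 in LP sham ganglia, and 161.0 to 198.8 in HP SNL against 415.7 to 516.8 in HP sham ganglia. Its averaged difference was -1.48 ± 0.09 (adjusted p = 4.99e-06). Fads3, a desaturase-related gene, rose by 0.69 ± 0.09 (adjusted p = 0.000294), while Acot7, an acyl-CoA thioesterase, and Acsbg1, an acyl-CoA synthetase, fell (-0.46 ± 0.08 and -0.45 ± 0.11). Elovl5, an elongase of polyunsaturated chains, fell too (-0.24 ± 0.06), and the synthetase Acsl5 rose (0.22 ± 0.05). Scd2, another stearoyl-CoA desaturase, whose signals ran from 6646.2 to 6901.9 in LP SNL and 6467.0 to 6912.3 in LP sham ganglia, had an averaged difference of 0.00 ± 0.08 and did not pass.

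**Figure D4:**
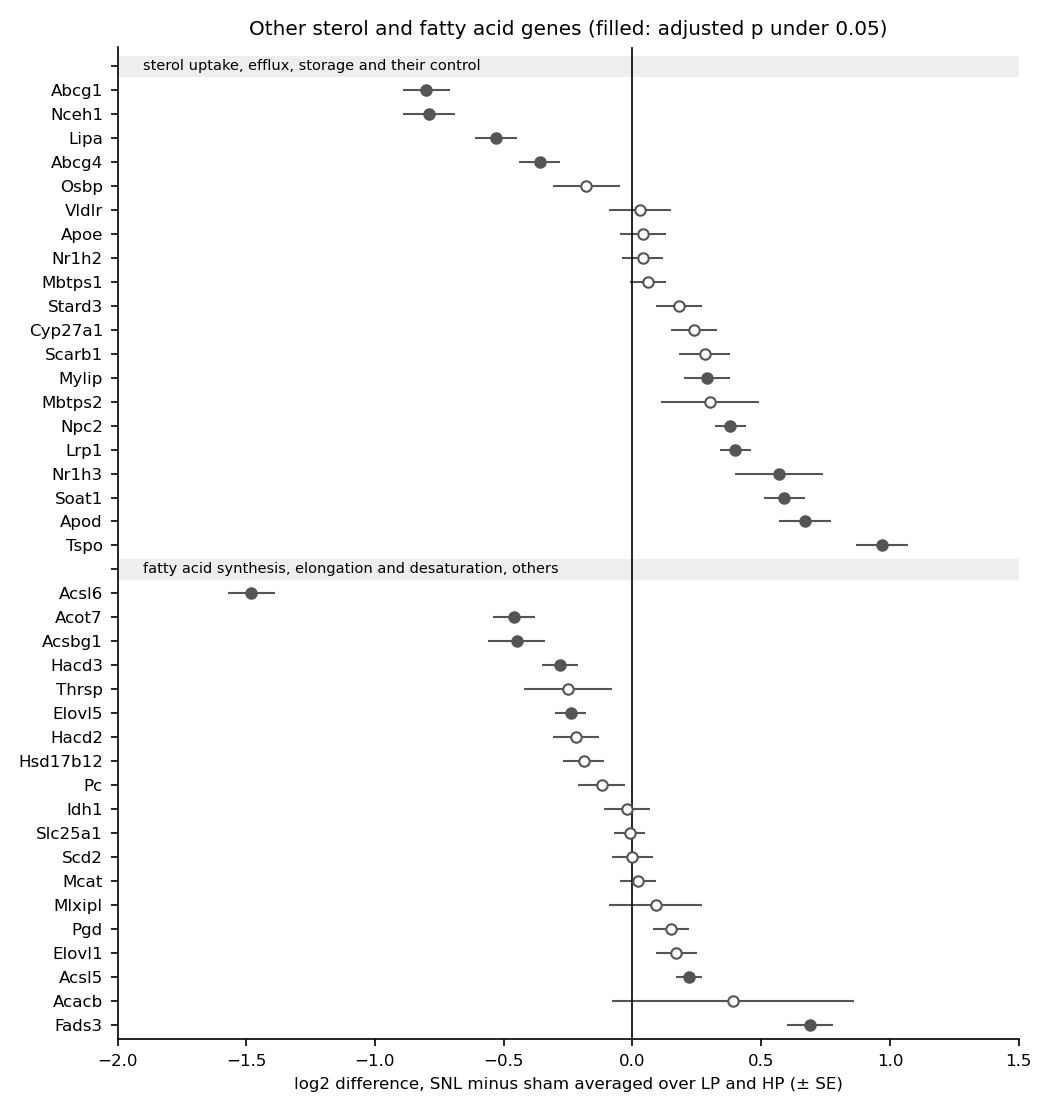
Log2 difference, SNL minus sham averaged over the LP and HP lines (x axis, ± SE), for 20 measured genes of sterol uptake, efflux and storage and 19 other genes of fatty acid synthesis. Filled points passed limma's adjusted p of 0.05; Acsl6 lies at the far left at -1.48 and Tspo at the right at 0.97.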

How the data were processed

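The authors deposited 1 table with a linear intensity per probe set and array, covering 15923 probe sets, with values between 0 and 13930.7. RMA, without a version, is the single tool in the submitters' processing notes. Every array had a mean of 500.1 without the lowest and highest 2% of values, so the steps behind the deposited values are not settled here, and signals are relative to each array's overall level. Groups came from the sample titles. Symbols came from the platform annotation, updated through a RefSeq gene table of GRCr8: 12783 probe sets had 1 symbol, 312 several and 2771 none, and only the first kind was used.

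Values were taken as log2(signal + 1), where 109 of 191076 values were below 1, which understates the change of dim genes. For each of 10411 genes the probe set with the highest mean log2 value over the 12 arrays was used. A single limma model with 4 group means was fitted to all arrays (limma 3.58.1 and statmod 1.5.0 in R 4.3.3, 8 residual and 2.05 prior degrees of freedom). Two-sided p-values were adjusted over all genes by Benjamini and Hochberg's method, with a threshold of 0.05. The contrasts were SNL against sham in LP, in HP and averaged, LP against HP after SNL and after sham, and the difference of the SNL effects. The fit was also run on simulated data with independent noise, which real arrays need not have, and no result here rests on that run. With 3 arrays a group, the number of arrays limits the precision.

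The members and lists were chosen with earlier results of these data known. Members past the threshold in any contrast were named with all values, the rate-limiting and regulatory ones also without passing, and other pathway genes only where they passed, at most the 6 with the smallest p per list and contrast. Scd2, Sc5d, Msmo1, Lbr, Acat1 and the cell type markers named singly were added after their values were seen. Alternatives were quantile normalization, a pseudocount of 16, trended and robust variance, a filter on the dimmest 25% of genes, median centring, averaging the probe sets of a gene, only the arrays compared, a covariate for the 3' to 5' ratio of beta-actin, the replicate number as a block and leaving out each array in turn.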

Additional observations from a re-analysis of the deposited data

How the results depend on the processing

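In the average over both lines the calls of 11 of the 16 members, Acat2, Idi1, Fdft1, Sqle, Cyp51, Scap, Insig1, Me1, Elovl6, Acsl3 and Acsl4, passed in all 20 alternatives run. Within lines, 4 of 9 LP calls and 2 of 7 HP calls passed in all 21. No member's called difference reversed. In LP, 15 members were called with trended and robust variance and 5 with only the arrays compared, against 9. Leaving out 1 array gave 6 to 10 members in LP, 13 to 17 on average, and 4 to 8 in HP, with 4 without HP SNL replicate 2 or without HP sham replicate 3, against 7. The cause of these shifts was not tested.

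The median sterol difference in LP was -0.39 with quantile normalization and -0.38 with median centring, in HP -0.23 with the beta-actin covariate, and on average -0.38 with median centring and -0.28 with the mean of probe sets. Leaving out 1 array gave -0.40 to -0.27 in LP, -0.36 to -0.28 in HP and -0.39 to -0.27 on average. For LP against HP after SNL it was -0.06 with median centring, -0.07 with the covariate and -0.07 to 0.05 without 1 array, and after sham 0.00 to 0.07 without 1 array. For the difference of the effects it was -0.05 with quantile normalization, -0.07 with the mean of probe sets and -0.09 to 0.01 without 1 array. The median fatty acid difference in LP was -0.22 with the covariate and -0.24 to -0.11 without 1 array, and for LP against HP after SNL 0.14 with the mean of probe sets. With the covariate in HP the adjusted p was 0.104 for Idi1, 0.051 for Fdft1, 0.12 for Insig1 and 0.0503 for Acsl3, and on average 0.0817 for Lss, 0.0931 for Srebf1 and 0.213 for Fasn. With only the arrays compared, the adjusted p was 0.0704 in LP and 0.0678 in HP for Idi1, 0.0916 in LP for Cyp51 and 0.122 in LP for Insig1. That alternative was not run for the averaged effect or the difference of effects, which need all arrays.

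With the replicate number as a block, 9 members were called in LP, 6 in HP and 16 on average. Cyp51 did not pass in LP (0.0517) or HP (0.052). Arrays with the same number did not deviate together: their 18 correlations lay between -0.158 and 0.098, and 2 of 12 arrays matched best with their own number.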

Other observations

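Genes of fatty acid uptake and oxidation moved in both directions with ligation. Of 23 measured, 4 rose and 6 fell on average over both lines, against 13.0% and 11.8% of all genes, with a median log2 difference of -0.11. Fabp3, a fatty acid binding protein, had signals of 240.5 to 365.5 in LP SNL ganglia against 760.9 to 1106.5 in LP sham ganglia, and 376.8 to 429.7 in HP SNL ganglia against 777.5 to 955.7 in HP sham ganglia. The groups were apart in both lines, and the averaged log2 difference was -1.31 ± 0.13 (limma, adjusted p = 8.65e-05). Cpt1a, which admits fatty acids to mitochondria, fell too (-0.47 ± 0.07, adjusted p = 0.000791). Cpt2, the inner membrane partner of Cpt1a, had the most negative averaged difference of the list, -1.85 ± 0.29 (adjusted p = 0.00117), and passed in HP at -2.38 ± 0.41 (adjusted p = 0.00471) but not in LP at -1.32 ± 0.41 (adjusted p = 0.0606). It was dim, at 34.2 to 48.8 in LP SNL ganglia against 66.2 to 152.7 in LP sham ganglia, and 16.1 to 45.6 in HP SNL ganglia against 92.5 to 188.2 in HP sham ganglia.

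The fatty acid transporter Cd36, which macrophages also express, had signals of 195.9 to 239.4 in LP SNL ganglia against 111.5 to 176.2 in LP sham ganglia, and 211.0 to 254.4 in HP SNL ganglia against 108.1 to 129.5 in HP sham ganglia. SNL arrays were above sham arrays in both lines, with an averaged log2 difference of 0.81 ± 0.12 (adjusted p = 0.000713). Fabp5, a fatty acid binding protein, rose by 0.54 ± 0.07 (adjusted p = 0.000318). Fabp7, the binding protein of satellite glia, had -0.57 ± 0.13 (adjusted p = 0.00987) and overlaps with the glial marker list.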
